A study of Mus musculus with 19 samples.

Results

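The kallikrein-related peptidases are proteases that loosen the dead outer cells of a squamous epithelium so that they can be shed, and Spink5 encodes an inhibitor that restrains them. The 10 genes described here (Klk5, Klk6, Klk7, Klk8, Klk9, Klk10, Klk11, Klk13, Klk14 and Spink5) were taken by name from a list of desquamation protease and inhibitor genes. They are 10 of the 24689 genes in the expression table. A gene was tested when at least 3 mice had 0.1 TPM or more, and all 10 were among the 22745 genes that passed. Klk6 reached 0.1 TPM in 18 of 19 mice, and the other 9 in 19 of 19.

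The study asked what the viral oncogenes E6 and E7 and an active form of YAP1 do to mouse tongue epithelium, separately and together, and the table holds bulk RNA sequencing of 19 mice at day 15 of transgene induction. Every mouse was a littermate 8 to 16 weeks old that received tamoxifen by injection into the tongue and a doxycycline diet. In this system the Krt14 promoter drives a tamoxifen-activated Cre (Krt14-CreERT) in basal cells, Cre removes a stop in front of the doxycycline-dependent activator (LSL-rtTA), and the activator switches on the tetON transgenes in those cells and their descendants. According to the methods of the study the mice also carried an H2B-GFP reporter, and the epithelium was taken off the underlying muscle with collagenase and dispase before poly-A RNA was sequenced. The E group (5 mice) was Krt14-CreERT with LSL-rtTA and tetON_E6-E7. The Y group (3 mice) carried tetON_YAP1S127A in place of the viral genes, and the EY group (6 mice) carried both effectors. The control group N (5 mice) was mixed. N mice 1 to 3 had Krt14-CreERT and LSL-rtTA without an effector, N mouse 4 had LSL-rtTA without Cre, and N mouse 5 had Krt14-CreERT with both effectors and no rtTA. Between 8269674 and 11007304 reads per mouse stood behind the values.

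Levels are given in TPM (transcripts per 1000000), which divides reads by transcript length so that levels of different genes can be set side by side. Fold changes are on the log2 scale, from a limma model with a mean for each group on log2(TPM + 0.1). A gene was called when its p, adjusted by the Benjamini-Hochberg method over the 22745 genes, was under 0.01 and its log2 fold change was above 1 or under -1. Over all tested genes the median change relative to controls was 0.33 for EY mice, 0.13 for Y mice and 0.07 for E mice. Median-of-ratios scaling of the mice brought these medians to 0.01, -0.03 and -0.02, so the fold change after this scaling is given beside many of the others as the scaled value. Where a group is near 0 TPM the fold change also depends on the 0.1 added before the log. All comparisons with N use the same 5 control mice. Where the mice of a group all lie past those of another, the share of all genes that separate in this way was not counted. In bulk tissue fewer cells of a type and less RNA per cell cannot be told apart, which holds for every level below.

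Kallikreins are secreted serine proteases made as inactive precursors in the upper layers of squamous epithelium, where they activate each other outside the cell and then cut the junction proteins that hold cornified cells together. Spink5 encodes LEKTI, a protein of many inhibitor domains that is released with them and holds them back until the outermost layers. Loss of SPINK5 in people causes Netherton syndrome, a skin disease in which unrestrained kallikreins shed the barrier too early and inflame the skin.

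The tissue label was checked against 8 markers of tongue epithelium. Their summed level was 80577 to 150096 TPM in N mice, 79203 to 133312 in E mice, 64338 to 124174 in Y mice and 52578 to 80918 in EY mice. Krt13 was the most abundant, and none of the 8 was at 0 in any mouse. In EY against N 3 of the 8 were called higher and 2 lower, with a median of 0.69, and after scaling 2 were called higher and 2 lower, with a median of 0.31.

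The 9 protease genes lie side by side on mouse chromosome 7, in the order Klk14, Klk13, Klk12, Klk11, Klk10, Klk9, Klk8, Klk7, Klk6, Klk5, Klk4 and Klk15, with 3 neighbours (Klk12, Klk4 and Klk15) that are not on the list. Spink5 lies elsewhere. RefSeq promoters of the GRCm38.p6 build, 250 bases before to 50 bases after the start, were found for all 9 proteases, with 11 entries because Klk6 and Klk11 have 2 each. The authors aligned to a later build, GRCm39, so these coordinates were used for the sequences alone. The promoters of the 4 genes that were called in EY against N are printed because their genes are close neighbours that moved in opposite directions. Klk6 and Klk10 were higher, and Klk7 and Klk5 were lower. All 4 lie on the + strand, at chr7:43825200-43825499 for the second Klk6 entry, chr7:43780804-43781103 for Klk10, chr7:43811044-43811343 for Klk7 and chr7:43842019-43842318 for Klk5, and capitals mark the letters GGAATG.
Klk6: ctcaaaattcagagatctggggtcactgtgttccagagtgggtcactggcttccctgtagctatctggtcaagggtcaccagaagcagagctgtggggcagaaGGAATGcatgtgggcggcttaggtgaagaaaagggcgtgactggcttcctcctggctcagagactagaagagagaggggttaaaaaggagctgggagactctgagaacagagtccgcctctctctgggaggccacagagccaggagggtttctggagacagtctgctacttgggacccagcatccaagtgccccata
Klk10: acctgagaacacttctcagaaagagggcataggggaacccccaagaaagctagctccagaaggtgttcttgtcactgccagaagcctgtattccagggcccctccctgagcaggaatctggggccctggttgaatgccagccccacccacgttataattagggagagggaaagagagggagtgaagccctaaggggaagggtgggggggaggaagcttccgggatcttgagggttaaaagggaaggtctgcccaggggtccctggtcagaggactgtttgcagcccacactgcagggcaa
Klk7: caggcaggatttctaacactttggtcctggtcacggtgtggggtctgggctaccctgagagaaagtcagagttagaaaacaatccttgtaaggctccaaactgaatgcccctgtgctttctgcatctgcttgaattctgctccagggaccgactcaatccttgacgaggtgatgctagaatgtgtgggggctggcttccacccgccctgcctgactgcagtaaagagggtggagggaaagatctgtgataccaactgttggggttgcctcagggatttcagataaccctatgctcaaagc
Klk5: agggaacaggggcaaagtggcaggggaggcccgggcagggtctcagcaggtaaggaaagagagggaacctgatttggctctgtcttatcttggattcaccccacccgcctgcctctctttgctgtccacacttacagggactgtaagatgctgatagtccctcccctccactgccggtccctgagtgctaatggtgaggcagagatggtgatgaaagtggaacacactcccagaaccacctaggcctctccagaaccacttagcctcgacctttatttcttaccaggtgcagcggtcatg

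Each promoter was searched on both strands for 3 motifs: the TEAD letters GGAATG, the AP-1 letters TGANTCA and the TATA box letters TATAAA. The letters GGAATG were in 1 of the 11 kallikrein promoters, the second Klk6 entry, 147 bases before the start, and in 14.7% of all 32851 mouse promoters of the same length. TGANTCA was in 0 of the 11 and in 7.81% of all. TATAAA was in 0 of the 11 and in 13.6% of all. The kallikrein promoters held 0 to 23 CpG pairs with a median of 4, beside a median of 7 over all promoters, and their GC share was 52% to 65.3% with a median of 55.7%, beside 52.7%. A match is a description of the letters and not a binding site, and sequence outside these promoters was not searched. The study reports Klk10 among genes that YAP activates directly, from YAP binding data of cultured cells that were not used here.

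The first question is how many of the 10 genes each comparison called. EY against N asks what both effectors do together, and it called 2 of 10 higher (Klk6 and Klk10), beside 12.6% of all genes. In the other direction it called 2 of 10 lower (Klk5 and Klk7), beside 5.71% of all genes. After scaling the same comparison called 2 of 10 higher, beside 6.77% of all genes, and 5 of 10 lower (Klk8, Klk9 and Klk14 joined Klk5 and Klk7), beside 8.67%. The median log2 fold change of the 10 was -0.61, beside 0.33 over all genes, and -0.99 beside 0.01 after scaling. YAP1S127A alone, Y against N, called 2 of 10 higher (Klk6 and Klk10), beside 3.47% of all genes, with a median of 0.28 beside 0.13. After scaling Klk10 was no longer called, beside 524 of 22745 genes called higher. E6-E7 alone, E against N, called 0 of 10 with limma, beside 1.2% of all genes in either direction. In that comparison 5 of 10 had an unadjusted p under 0.05, beside 14.8% of all genes, and limma voom on recovered read counts called 1 (Klk10), beside 1.17%. The median of the 10 in E against N was 0.43 beside 0.07.

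Comparisons between the transgenic groups ask what 1 effector adds to the other. Adding E6-E7 to YAP1S127A, EY against Y, called 2 of 10 lower (Klk7 and Klk9), beside 0.928% of all genes. Klk8 joined them after scaling, beside 283 of 22745 genes called lower. All 10 had a log2 fold change under 0 with and without scaling, with a median of -0.97 beside 0.18 over all genes (scaled -1.15 beside 0.02). Klk10 was at -0.01, and leaving out 1 mouse took it from -0.28 to 0.20. The share of all genes under 0 was not counted. Adding YAP1S127A to E6-E7, EY against E, called 1 of 10 higher (Klk6), beside 7.82% of all genes. It called 4 of 10 lower (Klk5, Klk7, Klk9 and Klk14), beside 4.99%. After scaling Klk8 joined these 4, beside 1572 of 22745 genes called lower. Y against E called 1 of 10 higher (Klk6), beside 1.67% of all genes. The interaction, the amount by which the EY change departs from the E change plus the Y change, was called for 0 of 10 by limma, beside 0.176% of all genes in either direction. For it 9 of 10 had an unadjusted p under 0.05, beside 13.5% of all genes, and limma voom called 2 (Klk7 and Klk9), beside 0.519%.

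**Figure D1:**
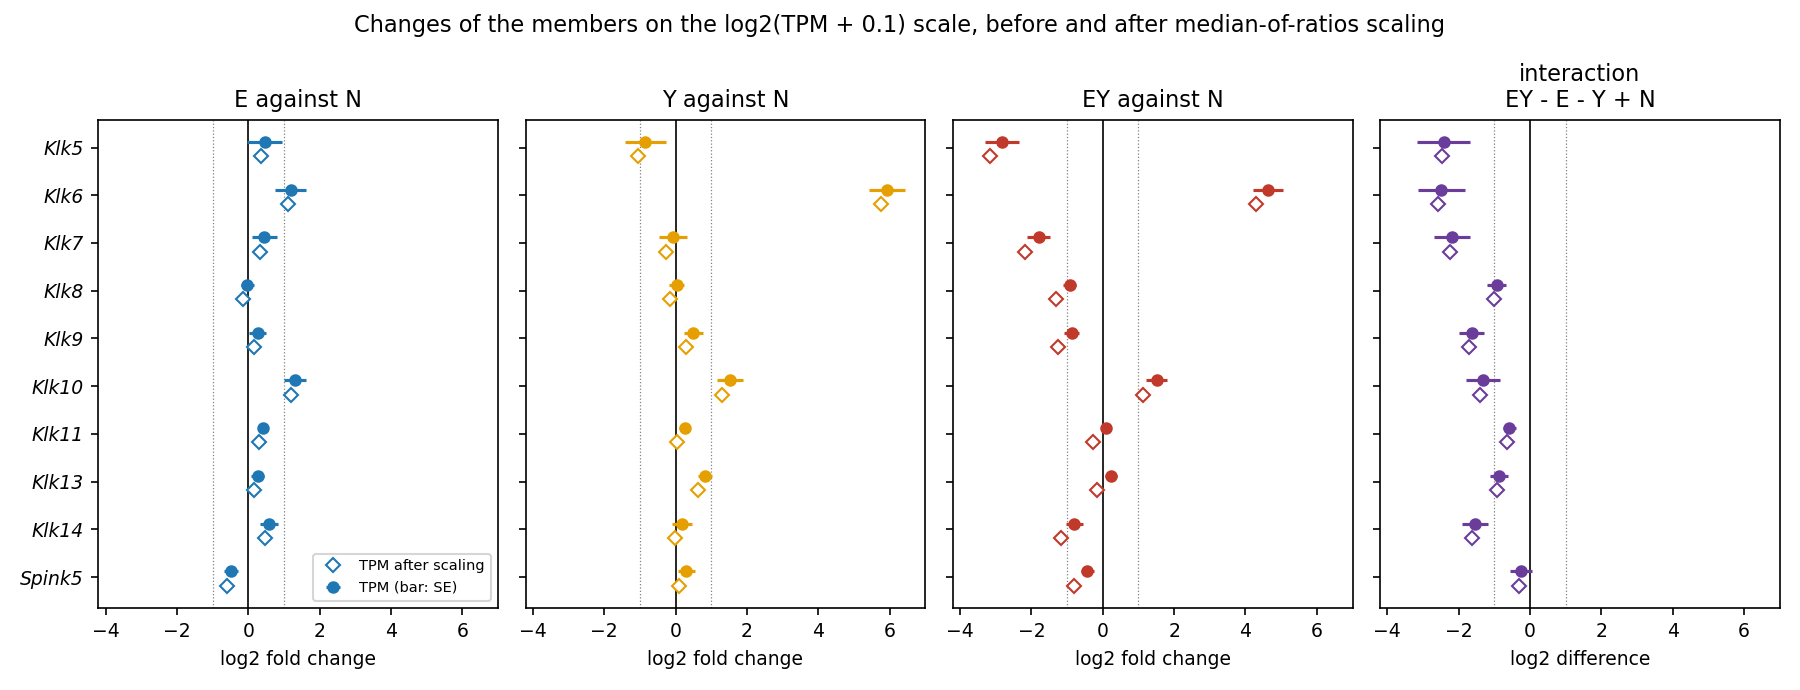
Log2 fold change of each of the 10 genes in E, Y and EY against the 5 N mice and the interaction, from limma on log2(TPM + 0.1), with filled points and standard error bars before scaling, open diamonds after scaling and dotted lines at -1 and 1. Klk6 and Klk10 lie above 0 in EY and Y, Klk5 and Klk7 lie below 0 in EY, and the signs of Klk11 and Klk13 in EY and of Klk8 and Klk14 in Y flip after median-of-ratios scaling.

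Klk5 is a trypsin-like protease that can activate itself and then other kallikreins, and it is usually placed at the head of the cascade. Its level in N mice 1 to 5 was 4.70, 8.46, 10.5, 12.6 and 7.59 TPM. E mice 1 to 5 had 4.10, 12.4, 19.6, 8.42 and 23.4 TPM, Y mice 1 to 3 had 6.11, 3.79 and 4.11 TPM, and the 6 EY mice ran from 0.386 to 2.03 TPM with a median of 1.56. Every EY mouse was below every N, E and Y mouse, while the E range covered the N range and 2 of 3 Y mice were below the lowest N mouse. The log2 fold change in EY against N was -2.81 ± 0.48 (SE), with a scaled value of -3.16 and an adjusted p of 0.000118, lower in 6 of 6 EY mice. EY against E gave -3.27 (scaled -3.51, adjusted p 3.69e-05), and EY against Y gave -1.96 (scaled -2.12), which was not called (adjusted p 0.0353). Y against N was -0.85 (scaled -1.05) and E against N was 0.46 (scaled 0.35), neither called with or without scaling. EY mice 4 and 6 rested on 6 reads each, and the EY values depend on the pseudocount. With 1 TPM in place of 0.1 they were -2.09 against N, -2.52 against E and -1.34 against Y, with the same calls.

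Klk14 is a strong trypsin-like protease that also activates other kallikreins. N mice had 413, 244, 303, 272 and 286 TPM, E mice 453, 492, 605, 318 and 416 TPM, Y mice 409, 271 and 348 TPM, and EY mice 99.4 to 247 TPM with a median of 194. The EY mice lay below every E and Y mouse and 5 of 6 lay below every N mouse, the highest EY mouse standing just above the lowest N mouse, and after scaling all 6 were below every N mouse. EY against E was called at -1.37 ± 0.23 (scaled -1.64, adjusted p 0.000172). EY against N was -0.79 with an adjusted p of 0.0109, not called, and with scaling it was -1.17 and called. EY against Y was -0.97 and not called, and limma voom called it at -1.04. E against N was 0.58, not called, with 4 of 5 E mice above every N mouse before scaling and 3 of 5 after it. In Y against N the value was 0.18 and flipped to -0.02 with scaling.

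Klk7 is the chymotrypsin-like member, activated by trypsin-like kallikreins, and it cuts corneodesmosin and desmocollin 1. N mice had 143, 146, 183, 200 and 223 TPM, E mice 152, 294, 311, 181 and 323 TPM, Y mice 142, 201 and 167 TPM, and EY mice 25.5 to 105 TPM with a median of 50.1. All 6 EY mice were below the lowest mouse of each other group, and 3 of 5 E mice were above every N mouse. The log2 fold change in EY against N was -1.79 ± 0.33 (scaled -2.17, adjusted p 0.000236). EY against E was -2.24 ± 0.33 (scaled -2.51, adjusted p 3.68e-05). EY against Y was -1.73 ± 0.38 with an adjusted p of 0.00919, close to the threshold. That call was lost in 16 of 19 fits that each left out 1 mouse, with log2 fold changes of -1.85 to -1.53. The 3 mice whose removal kept it were E mouse 1, EY mouse 3 and EY mouse 5. Left out singly, N mice 1 to 5, E mice 2 to 5, Y mice 1 to 3 and EY mice 1, 2, 4 and 6 undid it. The N and E mice do not enter this fold change. Leaving out 1 of them changed only the spread that the model estimates from all groups, and with it the adjusted p. Over all 19 fits the adjusted p ran from 0.00277 to 0.0486. Y against N was -0.07 (scaled -0.27), and leaving out 1 mouse took it from -0.19 to 0.06.

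Klk8 is a trypsin-like protease also called neuropsin. N mice had 148, 170, 230, 207 and 176 TPM, E mice 157, 195, 216, 147 and 192 TPM, Y mice 180, 194 and 194 TPM, and EY mice 66.7 to 135 TPM with a median of 92.1. Every EY mouse was below every mouse of the other groups, which overlapped each other. EY against N was -0.93 ± 0.17 with an adjusted p of 0.000296, under the p threshold and short of the fold threshold, and it was called after scaling at -1.31 and by limma voom at -1.10. It was also called without N mouse 1, EY mouse 3 or EY mouse 5, at -1.03 to -1.01. EY against Y was -0.97 and EY against E was -0.90 (adjusted p 0.000545), both short of the fold threshold. Both were called after scaling, at -1.15 and -1.16, and by limma voom, and the first was also called without EY mouse 3 or EY mouse 5, at -1.07 to -1.06. Y against N was 0.04 and flipped to -0.16 with scaling, and E against N was -0.03.

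Klk6 is a trypsin-like protease studied mostly in the nervous system and in tumours, able to cut protease-activated receptors. N mice had 0.303, 0.311, 0, 0.849 and 0.221 TPM, which rested on 0 to 13 reads per mouse. E mice had 0.291, 1.12, 0.613, 0.799 and 0.916 TPM. Y mice had 30.7, 20.8 and 14.3 TPM and EY mice 6.47 to 9.90 TPM with a median of 8.68. The 3 Y mice were the highest of the 19, the 6 EY mice came next without overlap, and N and E overlapped at levels near the limit of detection. For N mouse 3, whose count was 0, 3 reads would have been 0.255 TPM, a limit that covers counting error alone. The log2 fold change was 5.92 ± 0.51 in Y against N (scaled 5.76, adjusted p 1.56e-06, higher in 3 of 3 mice). In EY against N it was 4.62 ± 0.42 (scaled 4.29, adjusted p 1.53e-07, higher in 6 of 6 mice). E against N was 1.19 with an adjusted p of 0.186 and was not called. The sizes depend on the pseudocount, because N rests on so few reads. With 1 TPM in place of 0.1 they were 4.07 for Y, 2.85 for EY and 0.40 for E, and with 0.01 TPM 6.85, 5.54 and 1.93, with the same calls. Y against E was 4.73 (adjusted p 3.55e-05) and EY against E was 3.44 (adjusted p 6.94e-06), or 3.67 and 2.46 with a pseudocount of 1 TPM. EY against Y was -1.30 ± 0.50 and was not called by limma, although no EY mouse reached the lowest Y mouse. limma voom on recovered reads and a pseudocount of 1 TPM both called it, at -1.36 and -1.21, and its adjusted p over the alternatives ran from 0.000872 to 0.407.

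Klk10 encodes a kallikrein with weak protease activity in the test tube, first described as a gene expressed by normal breast epithelial cells and low in breast tumour lines. N mice had 535, 316, 458, 446 and 391 TPM. E mice had 771, 1094, 1203, 1111 and 1143 TPM, Y mice 1605, 832 and 1322 TPM, and EY mice 747 to 2684 TPM with a median of 996. Every E, Y and EY mouse was above every N mouse, and the 3 transgenic groups overlapped, with EY mice 1 and 4 at 2684 and 2020 TPM standing above all other mice. EY against N was 1.51 ± 0.30 (scaled 1.13, adjusted p 0.000546). Y against N was 1.52 ± 0.36 with an adjusted p of 0.0082, and with scaling it was 1.32 and no longer called. Leaving out 1 mouse undid that call in 11 of 19 fits, namely without N mouse 2, 3, 4 or 5, E mouse 2, 3, 4 or 5, Y mouse 1 or 3, or EY mouse 2. The log2 fold change in those fits was 1.31 to 1.54, and the adjusted p over all 19 ran from 0.00227 to 0.0487. E against N was 1.32 ± 0.31 (scaled 1.20) and was not called at an adjusted p of 0.0247, higher in 5 of 5 mice. Without EY mouse 1 it was called at 1.32. Between the transgenic groups the values were small. EY against Y was -0.01, EY against E was 0.19 and flipped to -0.07 with scaling, and Y against E was 0.20.

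**Figure D2:**
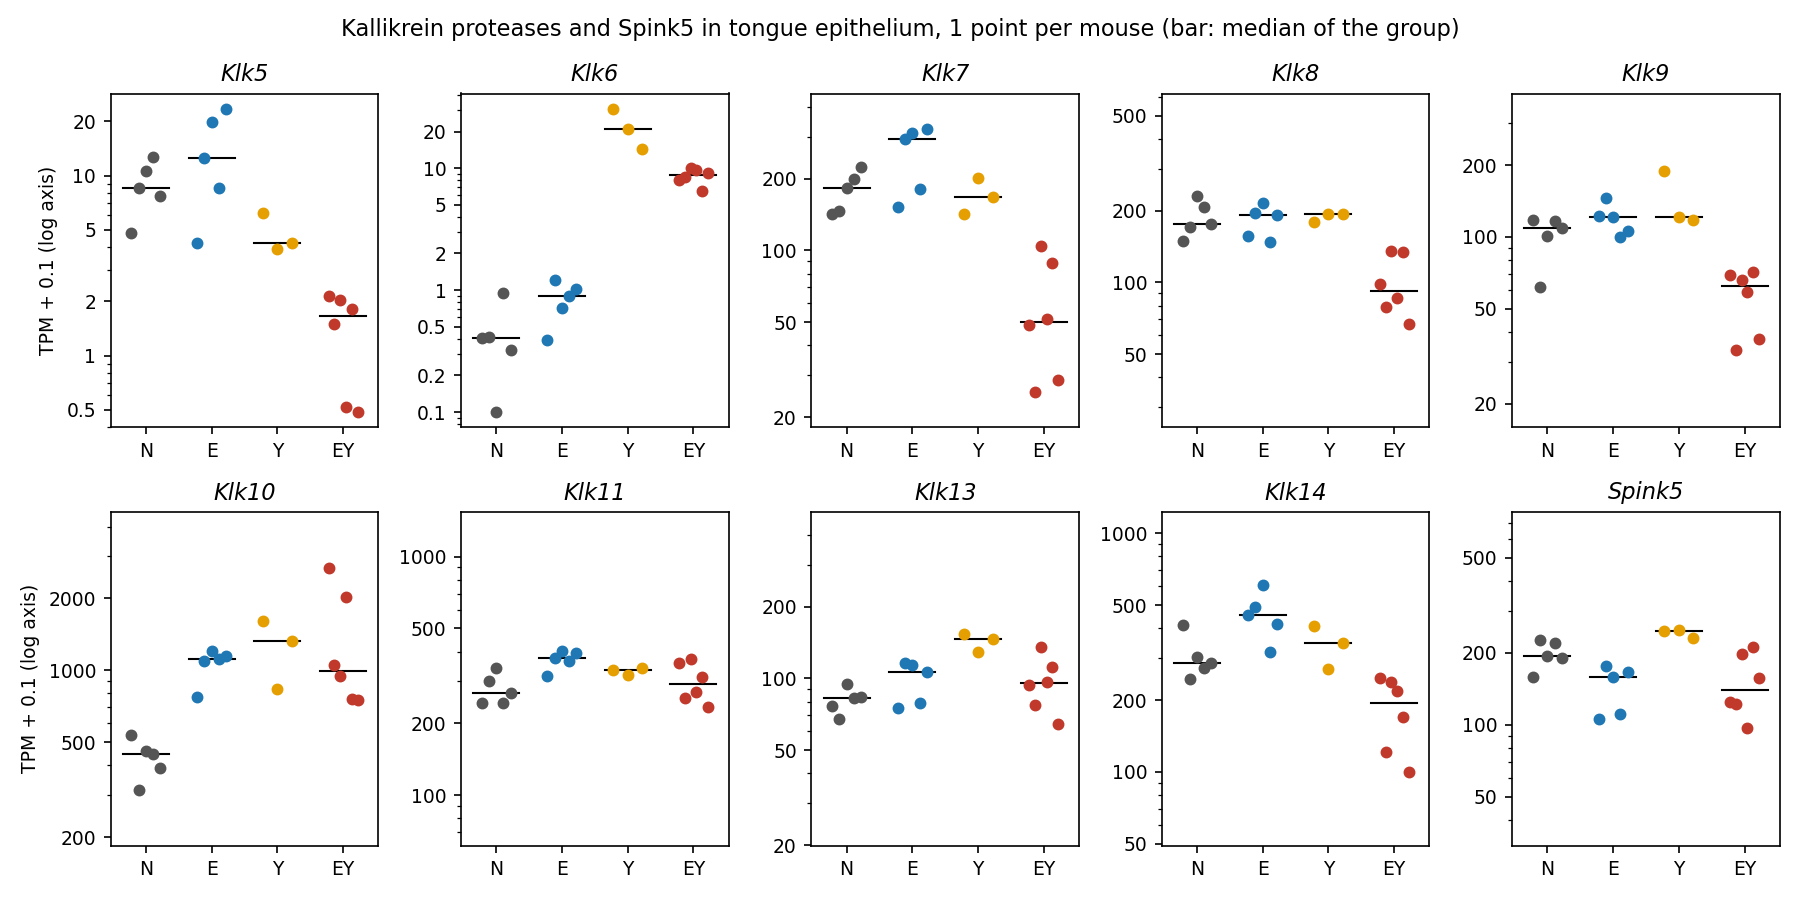
Level of each of the 10 genes in every mouse, in TPM + 0.1 on a log axis, with 1 point per mouse and a bar at the median of each group. The EY mice lie below every N mouse for Klk5, Klk7 and Klk8 and above every N mouse for Klk6 and Klk10. How common such a separation is over all genes was not counted.

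Klk9 is a little-studied member of the family. N mice had 118, 61.3, 101, 116 and 109 TPM, E mice 122, 146, 120, 99.9 and 106 TPM, Y mice 190, 120 and 118 TPM, and EY mice 33.4 to 71.3 TPM with a median of 62.2. The EY mice were below every E and Y mouse, and they overlapped N only through N mouse 2, which stood apart from the other 4 N mice. EY against Y was -1.38 ± 0.26 (scaled -1.55, adjusted p 0.00366) and EY against E was -1.14 ± 0.22 (scaled -1.40, adjusted p 0.000635). The first of these was not called without Y mouse 1, Y mouse 2 or Y mouse 3, at -1.49 to -1.15, and the second was not called without EY mouse 2, at -1.0. EY against N was -0.87 and not called, and it was called after scaling at -1.25, by limma voom at -1.06 and without N mouse 2 at -1.04.

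Klk11 and Klk13 are trypsin-like members found in many secretory and squamous epithelia. Klk11 ran from 234 to 403 TPM over the 19 mice, with overlapping groups and 4 of 5 E mice above every N mouse (3 of 5 after scaling). In EY against N it was 0.10 and flipped to -0.28 with scaling, in Y against N it was 0.26, and in E against N it was 0.41, with 0 calls in the 3 comparisons by limma or limma voom and an unadjusted p under 0.05 in 1 of them (0.00514 in E against N). Klk13 was 67.5 to 94.3 TPM in N mice, 75.4 to 116 in E mice, 64.5 to 136 in EY and 129 to 153 in Y. The 3 Y mice were above every N and E mouse, and 1 EY mouse, at 136 TPM, reached into their range before scaling and none after it. Y against N was 0.83 ± 0.20 with an adjusted p of 0.00935, short of the fold threshold. After scaling it was 0.63 with an adjusted p of 0.0708, short of both thresholds. Its adjusted p over the alternatives ran from 0.00585 to 0.135. EY against N was 0.22 for Klk13 and flipped to -0.15 with scaling.

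Spink5, the inhibitor of Klk5, Klk7 and Klk14, had 158, 225, 194, 220 and 190 TPM in the N mice. E mice had 105, 176, 159, 111 and 166 TPM, Y mice 246, 250 and 230 TPM, and EY mice 96.8 to 211 TPM with a median of 140. The 3 Y mice were the highest of the 19 before scaling and overlapped the N mice after it, E overlapped the lower end of N, and EY ran from below the E mice to within N. Its log2 fold change was not called in any of the 6 comparisons by limma or by limma voom, and 4 of the 6 had an unadjusted p under 0.05. The values were -0.43 in EY against N (scaled -0.80), 0.30 in Y against N (scaled 0.11) and -0.48 in E against N (scaled -0.60). Y against E was 0.79 (adjusted p 0.0382) and EY against Y was -0.73 (adjusted p 0.0503). EY against E was 0.06 and flipped to -0.21 with scaling.

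The order of the levels changed between groups below the top. Ordered by mean TPM, the N mice had Klk10 at 429 ± 81.7 (SD), Klk14 at 304 ± 64.7, Klk11 at 279 ± 41.4, Spink5 at 197 ± 26.8, Klk8 at 186 ± 32.0, Klk7 at 179 ± 34.7, Klk9 at 101 ± 23.1, Klk13 at 80.8 ± 9.78, Klk5 at 8.76 ± 2.97 and Klk6 at 0.337 ± 0.313. Klk14 and Klk11 did not differ beyond their spread, nor did Spink5, Klk8 and Klk7, nor Klk9 and Klk13. Klk10 was the highest in each of the 4 groups. The lowest was Klk6 in N and E and Klk5 in Y and EY. In EY the order began with Klk10 at 1367 ± 800.1, Klk11 at 300.3 ± 56.2, Klk14 at 182 ± 62.0 and Spink5 at 151 ± 45.6. Klk7, after Klk8 in N and ahead of it in E, came after Klk13 in EY at 57.9 ± 32.1, within the spread of Klk9 at 55.9 ± 16.6.

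Summed over the 9 proteases, the level was 1314 to 1719 TPM in N mice, 2050 to 2992 in E mice, 2089 to 3049 in Y mice and 1287 to 3610 in EY mice. The E and Y mice were all above the N mice, and EY overlapped every group. Without Klk10 the sum was 999 to 1261.5 TPM in N mice, 1198 to 1789 in E mice, 1257 to 1444 in Y mice and 540 to 1061 in EY mice, so that the EY mice overlapped only the low end of N, and after scaling they did not overlap it. Klk10 made up 24.0% to 31.8% of the sum in N mice, 37.6% to 48.1% in E mice, 39.8% to 52.7% in Y and 45.7% to 74.4% in EY. The share of Klk7 had a median of 11.1% in N mice, 10.4% in E, 6.31% in Y and 2.03% in EY. For Klk6 the median share was 0.0180% in N mice, 0.0339% in E mice, 0.997% in Y and 0.442% in EY. The sum divided by the Spink5 level was 5.83 to 10.6 in N mice, 15.5 to 20.9 in E mice, 8.36 to 12.4 in Y and 7.83 to 29.1 in EY. All 5 E mice were above all N and Y mice on this ratio, and the highest ratios of the 19 mice were those of EY mice 1 and 4, at 29.1 and 29.0, the pair with the highest Klk10. These sums and ratios are descriptions with no test.

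**Figure D3:**
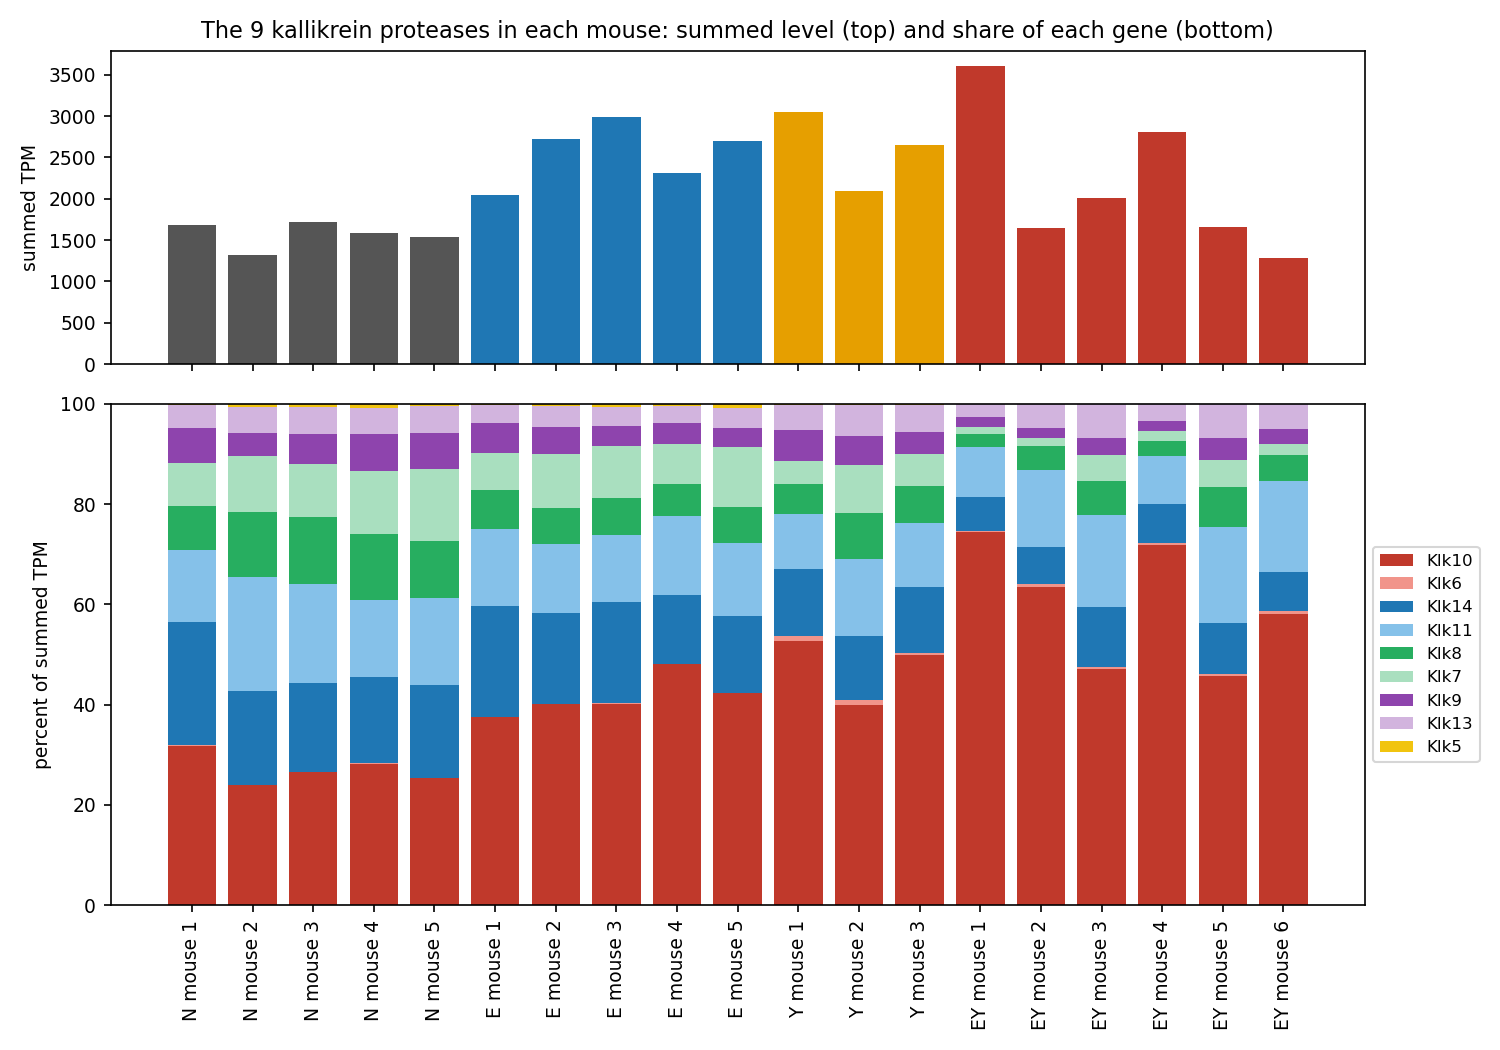
Summed TPM of the 9 proteases in each of the 19 mice, coloured by group (top), and the percent of that sum from each protease as stacked bars (bottom). The share of Klk10 is 24.0% to 31.8% in N and 45.7% to 74.4% in EY.

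The interaction asks whether the EY change differs from the E and Y changes added together on the log2 scale. It was below 0 for all 10 genes with and without scaling, with a median of -1.44 beside 0.08 over all genes (scaled -1.50 beside 0.02). The values ran from -2.48 for Klk6 (scaled -2.58), -2.42 for Klk5 (scaled -2.47) and -2.18 for Klk7 (scaled -2.24) to -0.25 for Spink5 (scaled -0.31). This order depends on the pseudocount, and with 1 TPM the values were -2.16 for Klk7, -1.78 for Klk5 and -1.61 for Klk6. By limma voom, which called Klk7 and Klk9, their values were -2.24 and -1.69. For Klk9 the limma value was -1.64 with an adjusted p of 0.0358, and its adjusted p over the alternatives ran from 0.00685 to 0.0594. For Klk10 it was -1.32 with an adjusted p of 0.218, from changes of 1.32 in E, 1.52 in Y and 1.51 in EY.

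The changes are given here in gene order, and no test of the order was made. In EY against N the log2 fold changes in gene order were -0.79 for Klk14 (scaled -1.17 and called), 0.22 for Klk13 (scaled -0.15), 1.33 for the unlisted Klk12 (scaled 0.96), 0.10 for Klk11 (scaled -0.28), 1.51 for Klk10 (scaled 1.13), -0.87 for Klk9 (scaled -1.25 and called), -0.93 for Klk8 (scaled -1.31 and called), -1.79 for Klk7 (scaled -2.17), 4.62 for Klk6 (scaled 4.29) and -2.81 for Klk5 (scaled -3.16). Klk6 thus stood between Klk7 and Klk5, both lower. Beyond Klk5, the unlisted Klk4 was -2.65 (scaled -2.81) and Klk15 was -6.08 (scaled -6.29), and with a pseudocount of 1 TPM they were -0.72, no longer called, and -3.57. Klk15 fell from 4.66 to 23.1 TPM in N to 0 to 1.23 TPM in EY, with 4 of 6 EY mice at 0, and Klk12 rose from 90.2 to 128 TPM to 218 to 336 TPM.

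**Figure D4:**
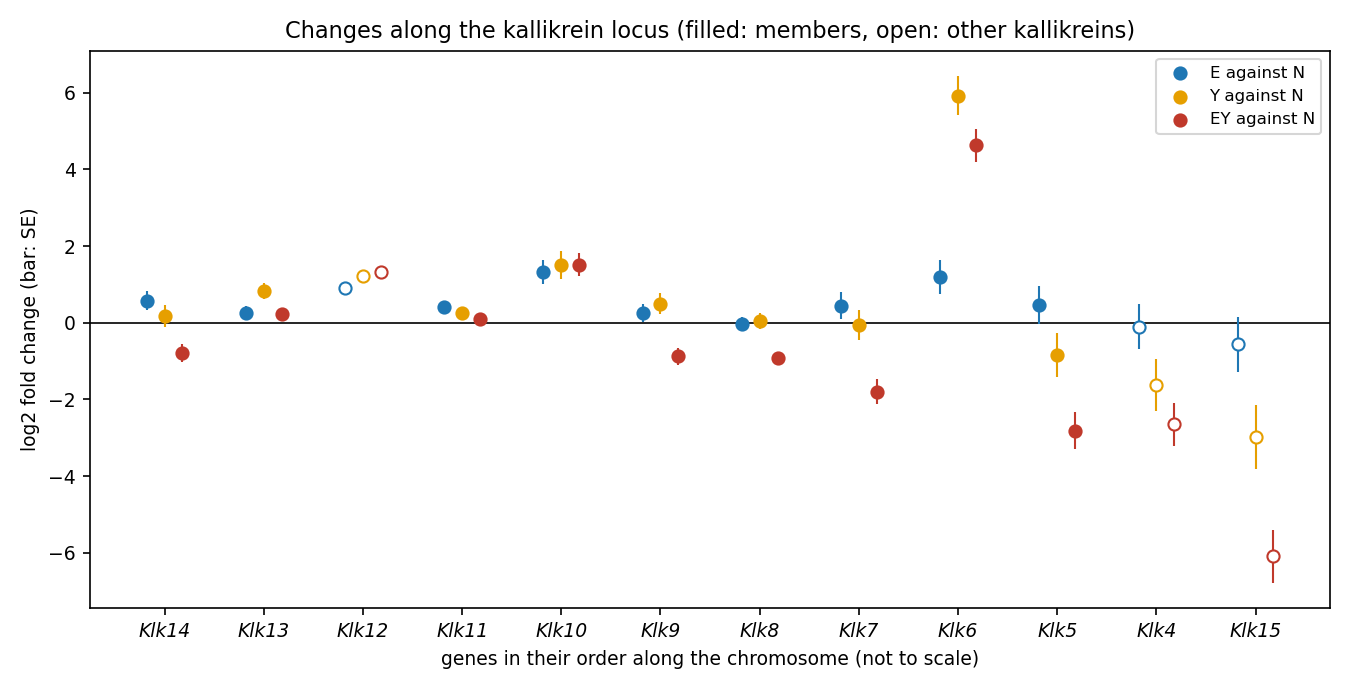
Log2 fold change against N in EY, Y and E for the kallikrein genes in their order along chromosome 7, evenly spaced, with standard error bars and open points for the 3 genes not on the list. Klk6 lies at 4.62 in EY and 5.92 in Y between Klk7 and Klk5, which lie below 0 in EY, while Klk7 in Y is within its error of 0, and Klk11 and Klk13 in EY and Klk8 and Klk14 in Y flip sign with scaling.

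Some kallikrein exons overlap other genes, which limits what reads there can show. The antisense gene 2310002F09Rik shares 382 of 1540 exon bases of Klk8 (24.8%) and 287 of 1271 of Klk14 (22.6%) in the GENCODE annotation. Its own mean level was 6.39 TPM in N mice, 7.03 in E mice, 5.58 in Y and 2.88 in EY, well under Klk8 and Klk14. Whether the counting used the strand is not given, so reads of the 2 strands cannot be told apart there. Gm44814 lies inside Klk13 on the same strand with 0 shared exon bases, and its mean was 63.6 TPM in N mice, 66.1 in E mice, 183 in Y and 80.7 in EY. Gm44817 lies likewise inside Klk14, with means of 65.5, 63.0, 58.9 and 31.2 TPM in the same order.

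How the genes varied from mouse to mouse within groups was described by Pearson's r of their log2 deviations from the group means (n = 19 mice, groups pooled, 45 pairs, no test). The median r was 0.47, with a range of -0.47 to 0.87, and 20 of 45 pairs were above 0.5. Klk7, Klk8 and Klk13 formed the tightest trio, with r of 0.87 for each pair (Spearman's rho 0.87 for Klk7 with Klk8, 0.85 for Klk7 with Klk13 and 0.84 for Klk8 with Klk13). Klk6 stood apart, with r between -0.26 and 0.21 to the other 9. Its deviations in N and E rested on 0 to 13 reads per mouse, so counting error and the pseudocount enter these values. Klk10 went with Klk14 at 0.62 (rho 0.66), and against Spink5 at -0.47 (rho -0.39).

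The genes whose log2 level over the 19 mice followed each member most closely were sought among all tested genes. These correlations follow the group differences because the groups are pooled. The closest to Klk5 was Il36rn (r 0.951), with means of 184 TPM in N mice, 213 in E mice, 107 in Y and 31.0 in EY, followed by Ankrd24 (r 0.934). Klk6 was closest to Plet1 (r 0.947), at 0.988, 2.42, 53.2 and 46.9 TPM in the same order, and to Krt90 (r 0.943). Klk7 was closest to Lce3b (r 0.974) and Anxa9 (r 0.966), and Lce3b had means of 2313, 3196, 2273 and 700 TPM. Klk8 was closest to Pdzk1ip1 (r 0.961) and Lipk (r 0.951), and Klk9 to Lce3e (r 0.907) and Lce3b (r 0.897). Klk10 was closest to Eif6 (r 0.934), at 159, 213, 231 and 264 TPM, and to Actr1a (r 0.928). For Klk13 they were Prss27 (r 0.899) and Chil1 (r 0.881), and for Klk11 Pld2 (r 0.864) and Zswim9 (r 0.846). For Klk14 they were the antisense gene 2310002F09Rik that shares exon bases with it (r 0.921) and Pnpla1 (r 0.916), and for Spink5 Ces2f (r 0.872) and Gm44982 (r 0.851).

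Proteins that kallikreins cut, the receptor PAR2 through which they signal and Tslp, a cytokine that this signalling induces in keratinocytes, were taken as a list of 8 genes, all tested, of which Cdsn is also an upper layer marker and Camp a granulocyte marker below. EY against N called 2 higher and 4 lower, beside 12.6% and 5.71% of all genes. The median was -0.83 beside 0.33 over all genes (scaled -1.13 beside 0.01). Y against N called 2 higher, beside 3.47% of all genes, and 2 lower, beside 252 of 22745 genes. E against N called 0 by limma and 0 by limma voom, beside 1.2% and 1.17% of all genes. It had 1 at an unadjusted p under 0.05, beside 14.8%. F2rl1 encodes PAR2, a protease-activated receptor that trypsin-like kallikreins cleave, and it was 2.7 to 4.36 TPM in N mice, 3.47 to 7.58 in E mice, 17.3 to 43.0 in Y and 22.9 to 78.9 in EY. Its log2 fold change in EY against N was 3.90 (scaled 3.52). Tslp was 0 to 0.929 TPM in N mice, 1.06 to 3.67 in E mice, 1.31 to 15 in Y and 4.94 to 17.4 in EY, a change of 5.05 in EY (scaled 4.77, and 3.15 with a pseudocount of 1 TPM). All Y and EY mice were above all N mice for both, and for Tslp all E mice were too. In E against N Tslp was 2.84 by limma (1.31 with a pseudocount of 1 TPM), not called at an adjusted p of 0.0332. The desmosomal cadherins of the upper layers went the other way. Dsg1a was 284 to 478 TPM in N and 16.8 to 41.3 in EY, a change of -3.54 (scaled -3.92), and Dsc1 was 325 to 572 and 18.6 to 56.7 TPM, a change of -3.36 (scaled -3.74). Cdsn, the corneodesmosin that Klk5, Klk7 and Klk14 degrade and named here after its values were seen, was 714 to 1151 TPM in N and 143 to 295 in EY, a change of -2.15 (scaled -2.53).

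Other proteases and inhibitors of the epithelium were taken as 5 lists. For these lists and the marker lists, the shares of all genes called in EY against N were 12.6% higher and 5.71% lower with a median of 0.33 (6.77%, 8.67% and 0.01 after scaling). In Y against N they were 3.47% higher and 252 of 22745 genes lower, and in E against N 1.2% in either direction. Of 17 other kallikreins 9 were tested, and EY against N called 1 higher (Klk12, not called after scaling) and 2 lower (Klk15 and Klk4, the latter not with a pseudocount of 1 TPM), with a median of 0.48 (scaled 0.42). Of these 9 several Klk1b copies are nearly identical in sequence, so their reads are uncertain. Of 11 other Spink genes 7 were tested, with 1 called higher (Spink2 at 2.57, scaled 2.25) and 2 lower (Spink6 at -4.13, scaled -4.38, and Spink7 at -4.06, scaled -4.41) and a median of -0.68 (scaled -0.75). Spink7, an inhibitor found in the oesophagus and mouth, was 13.2 to 18.3 TPM in N and 0.155 to 2.15 TPM in EY. Among 15 tested membrane-anchored and other serine proteases 4 were called higher and 3 lower, with a median of 0.35, and after scaling 3 higher and 4 lower, with a median that flipped to -0.02. Tmprss11g changed by 2.72 (scaled 2.35) and Tmprss11e by 1.83 (scaled 1.46), while Tmprss11d changed by -1.65 (scaled -2.02) and Tmprss11a by -1.63 (scaled -2.01). Of 9 cysteine and aspartic proteases 3 were called higher, namely Ctsh at 2.36 (scaled 1.99), Casp14 at 2.28 (scaled 1.91) and Ctsc at 1.52 (scaled 1.14), and 2 lower, among them Asprv1 at -1.71 (scaled -2.09), with a median of 0.64 (scaled 0.26). Of 23 tested serpins and other inhibitors 6 were called higher and 10 lower, with a median of -0.91, and after scaling 5 higher and 12 lower, with a median of -1.29. Serpinb3d changed by -5.36 (scaled -5.64), Serpina12, an inhibitor of Klk7, by -5.07 (scaled -5.41) and Serpinb3c by -4.89 (scaled -5.27), while Pi15 changed by 4.34 (scaled 4.05). With a pseudocount of 1 TPM the low genes moved less and stayed called, with 1.40 for Spink2, -2.10 for Spink6, -3.49 for Serpinb3d and 2.20 for Pi15. Serpina12 was 17.3 to 27.5 TPM in N mice, 11 to 24.4 in E mice, 6.49 to 7.74 in Y and 0.287 to 1.47 in EY, so that the EY mice were below all others. In Y against N the 5 lists had, in the same order, 1, 0, 4, 3 and 3 genes called higher and 0, 1, 0, 0 and 4 called lower by limma, the last being 5 after scaling. E against N called 1 gene over the 5 lists (Casp14 at 1.19, which was 1.08 and not called after scaling), with 1, 0, 4, 1 and 6 at an unadjusted p under 0.05 and 0, 0, 0, 1 and 1 called by limma voom.

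Kallikreins and Spink5 are made in the upper layers, so markers of those layers are given beside them. The list had 12 genes, all tested, 8 called lower and 0 higher in EY against N by limma, with a median of -2.60 (scaled -2.98). At an unadjusted p under 0.05 there were 9, and limma voom called 8. Y against N called 2 lower and E against N called 0 by limma or limma voom, with 0 at an unadjusted p under 0.05. Their summed level was 12050, 8171, 10005, 6869 and 10355 TPM in the N mice, 15870, 9414, 14572, 7124 and 7168 in the E mice, 7718, 3511 and 4320 in the Y mice and 847 to 1888 with a median of 1128 in the EY mice. Every EY mouse was below every mouse of the other groups, and 2 of 3 Y mice were below every N mouse. Lor was the most abundant, and Krt77 and Krt2 were at 0 in some mice. The largest changes in EY against N were -5.92 for Lce1a1 (scaled -6.30), -5.73 for Krt10 (scaled -6.10), -3.71 for Lor (scaled -4.09) and -3.61 for Krt1 (scaled -3.95). Klk6 and Klk10 moved against these markers in EY, and the part of the upper layers in the lower levels was not tested. Among the epithelium markers, basal Krt14 changed by 1.43 (scaled 1.06) and Krt13 by -1.75 (scaled -2.13). Basal Krt5 at 0.98 (scaled 0.60) and Trp63 at 0.02 (scaled -0.35) were not called.

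**Figure D5:**
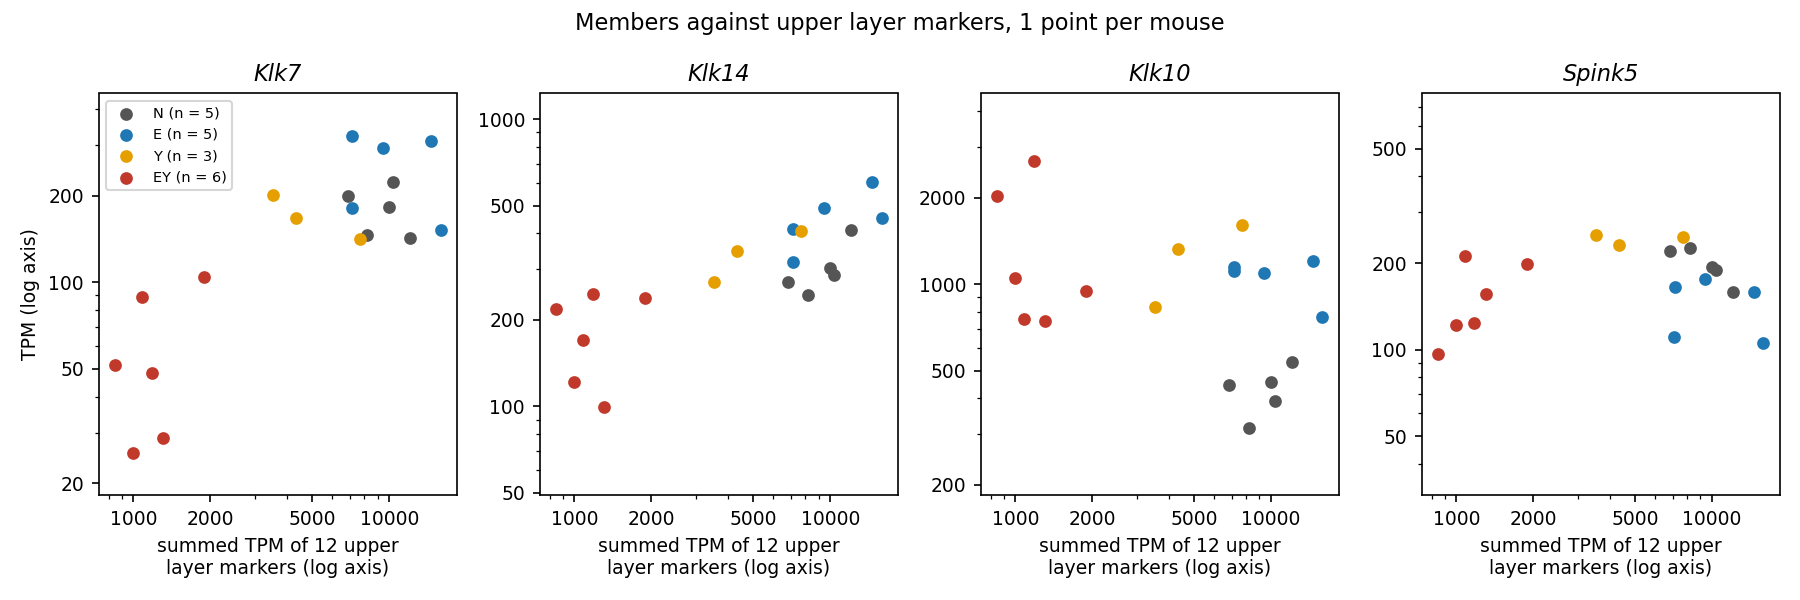
Level of Klk7, Klk14, Klk10 and Spink5 in TPM against the summed TPM of 12 upper layer markers, both on log axes, with 1 point per mouse in 4 group colours. The EY mice lie at 847 to 1888 TPM on the marker axis, left of the other groups, with Klk7 below and Klk10 above every N mouse.

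Markers of other cell types were summed in the same way, and their part in any of the kallikrein values was not tested. The most abundant gene named for each list is that over all 19 mice together, and the order can differ within a group. Of 10 granulocyte markers 4 were called higher and 0 lower in EY against N (limma, with 7 at an unadjusted p under 0.05 and 4 by limma voom), with a median of 2.48 (scaled 2.33), and with a pseudocount of 1 TPM Ly6g and Cd177 were no longer called. Their sum was 57.6, 12.8, 8.58, 10.5 and 9.79 TPM in N mice, 26.7, 76.7, 37.6, 5.44 and 29.7 in E mice, 487, 655 and 390 in Y and 63.0 to 787.4 with a median of 490 in EY. S100a8 was the most abundant, at 363 to 653 TPM in Y, and keratinocytes also express it. In Y against N 1 of 10 was called by limma (S100a8), and 1 had an unadjusted p under 0.05. Ly6g, Retnlg, Mpo, Ngp, Camp, Cd177 and Mmp8 were at 0 in some mice, Ly6g in every N, E and Y mouse. Of 10 skeletal muscle markers 1 was called higher (Tnni2, not called after scaling), with a median of 1.66 (scaled 1.29). Their sum was 79.6, 316, 23.1, 53.9 and 71.9 TPM in N mice, 54.1, 39.9, 48.2, 30.2 and 172 in E mice, 31.5, 213 and 54.6 in Y and 69.6 to 1523 with a median of 230 in EY, where EY mouse 3 was the highest. Acta1 was the most abundant, and Myh2 and Pvalb were at 0 in some mice. The 8 macrophage and monocyte markers summed to 114 to 908 TPM in N mice, 48.0 to 655 in E mice, 82.5 to 155 in Y and 273 to 492 in EY, with Lyz2 the most abundant, none at 0, a median change of 1.12 in EY against N (scaled 0.76) and 0 called there by limma or limma voom (3 at an unadjusted p under 0.05). Lymphocyte markers (7 of 8 tested, 1 called higher, Cd3d, not with a pseudocount of 1 TPM) reached 18.9 TPM at most, with Nkg7 the most abundant and each of the 7 at 0 in some mouse. Fibroblast markers (6, with 1 called lower, Dcn, which was also the most abundant) summed to 23.8 to 293 TPM, with none at 0. Their median change in EY against N was 0.39 (scaled 0.02). Apart from Dcn they lay above 0 and were not called, from 0.32 for Col1a1 (scaled -0.05) to 1.08 for Pdgfra (scaled 0.81). Endothelial markers (4 of 5 tested, 1 called higher, Tie1, which was the most abundant and was not called after scaling or with a pseudocount of 1 TPM) reached 5.45 TPM at most, with Cdh5, Kdr and Emcn at 0 in some mice. Salivary gland markers (4 of 13 tested, 0 called by limma in EY against N, 1 after scaling, 2 at an unadjusted p under 0.05, 1 by limma voom) summed to 0.0963 to 0.696 TPM in the E, Y and EY mice and 0.0707 to 138 TPM in N, where mice 2 and 3 had 58.3 and 138, with Dcpp1 the most abundant and all 8 genes of the table at 0 in some mouse.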

How the data were processed

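Bulk RNA of tongue epithelium from 19 mice (5 N, 5 E, 3 Y, 6 EY) was read by the authors with STAR 2.7.9, SAMtools 1.7, HTSeq 0.13.5 and DESeq2 1.34.0 on GRCm39, as the submitters' notes state, and the authors deposited the values as TPM. How TPM was computed from the counts is not given in the sources used here. Read counts were recovered from the TPM steps of each gene and were whole within 0.001 reads for 24680 of 24680 genes, with 9 more genes at 0 in every mouse. Depth was 8269674 to 11007304 reads per mouse. The 22745 genes that reached 0.1 TPM in 3 or more mice were fitted with limma 3.58.1 in R 4.3.3 (lmFit, eBayes with trend) on log2(TPM + 0.1), with a mean for each group, 6 comparisons and an interaction. Calls needed a Benjamini-Hochberg p below 0.01 over all genes and an absolute log2 fold change above 1. Steps in Python 3.11.15 used numpy 2.4.6, pandas 2.3.3 and matplotlib 3.10.9, and the fits were tested on simulated data. Alternatives covered pseudocount, filter, scaling, quantile normalization, voom, controls, groups, a replicate block, thresholds and each mouse. Promoters and motif shares came from RefSeq. Of each list, at most 4 called genes with the largest absolute change in EY against N were named. For each member with a mean of 1 TPM or more, the 2 tested genes with the highest Pearson's r were named. Lists of marker genes were tongue epithelium, upper layer, skeletal muscle, salivary gland, granulocyte, macrophage and monocyte, lymphocyte, fibroblast and endothelial. The members and lists were chosen with earlier results of these data known.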

Additional observations from a re-analysis of the deposited data

Results flagged for a closer look

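In 36 groups of 5 or 6 mice (the 10 genes, the protease sum and the Klk10 share, each in N, E and EY), 2 mice stood further from the rest of their group than Dixon's limit allows, where chance alone marks about 1 in 20 groups. N mouse 2 had 61.3 TPM of Klk9, below the other 4 N mice at 101 to 118 TPM. E mouse 1 had 771 TPM of Klk10, below the other 4 E mice at 1094 to 1203 TPM and above every N mouse.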

How the results depend on the processing

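The alternatives were another pseudocount (1 or 0.01 TPM), no filter or a filter of 1 TPM, median-of-ratios scaling, quantile normalization, limma voom on recovered read counts, robust eBayes, a control group of the 3 N mice with both regulators, a model of only the groups compared, a replicate block by mouse number, a threshold of 0.05 on the adjusted p, no threshold on the fold change, and leaving out each mouse. Apart from leaving out a mouse, 839 of 900 values kept their direction and their side of the threshold, 28 passed it, 11 lost it and 22 changed sign. Leaving out a mouse kept 1269 of 1330, with 7 passing, 31 losing the call and 23 changing sign. Part of these values could not change sign. A left-out mouse of a group outside the comparison does not move the fold change, and the changes of threshold reuse the main fit. The cause was not tested for the values below, except that fewer mice or genes entered some fits.

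Each count of the 10 genes below has the number called over all 22745 tested genes in parentheses. EY against N called 7 in place of 4 under median-of-ratios scaling (3512) and under quantile normalization (3544), and Y against N called 1 in place of 2 (916 and 844). EY against Y called 1 in place of 2 after quantile normalization (419) and with no filter (431 of 24680). It called 3 with a pseudocount of 1 TPM (353), under median-of-ratios scaling (406) and with no fold threshold (803). EY against E called 6 in place of 5 under median-of-ratios scaling (2572), quantile normalization (2600) and no fold threshold (5746). With no fold threshold EY against N called 6 (7248) and Y against N called 3 (1935). With 3 N mice, Y against N called 1 (656) and EY against Y called 1 (383). With only the groups compared, Y against N called 1 (555), E against N called 1 in place of 0 (145) and EY against Y called 0 (198). With the mouse number as a replicate block, Y against N called 1 (861) and EY against Y called 1 (320). At an adjusted p below 0.05, E against N called 1 (414), EY against Y called 3 (865) and the interaction called 1 in place of 0 (148). limma voom called 6 in EY against N (4026), 2 in Y against N (1081), 1 in E against N (267), 5 in EY against Y (488), 6 in EY against E (2889), 1 in Y against E (648) and 2 for the interaction (118). Leaving out a mouse, the counts were 4 to 5 in EY against N, 1 to 2 in Y against N, 0 to 1 in E against N, 0 to 3 in EY against Y, 4 to 5 in EY against E, 1 in Y against E and 0 for the interaction.

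None of the log2 fold changes that changed sign was called. Scaling gave -0.16 for Klk8 and -0.02 for Klk14 in Y against N, -0.01 for Klk8 in Y against E, -0.07 for Klk10 and -0.21 for Spink5 in EY against E, and -0.28 for Klk11 and -0.15 for Klk13 in EY against N. Quantile normalization gave -0.28 for Klk8 and -0.01 for Klk14 in Y against N, -0.10 for Klk8 in Y against E, 0.05 for Klk10 in EY against Y, -0.09 for Spink5 in EY against E, and -0.07 for Klk11 and -0.12 for Klk13 in EY against N. limma voom gave -0.06 for Klk8 in Y against N, -0.07 for Klk11 in EY against N and -0.09 for Spink5 in EY against E. With 3 N mice, Klk7 was 0.11 in Y against N and Klk8 was 0.0008 in E against N. With the replicate block, Klk7 was 0.05 in Y against N, Klk10 was 0.13 in EY against Y and Klk13 was 0.07 in EY against E. Over 24 pairs of mice with the same number in different groups the median correlation was 0.0119 (-0.0426 to 0.0764), so the number does not mark pairs.

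Leaving out a mouse gave -0.19 to 0.06 for Klk7 and -0.04 to 0.12 for Klk8 in Y against N, -0.11 to 0.05 for Klk8 in E against N, -0.28 to 0.20 for Klk10 in EY against Y, -0.04 to 0.33 for Klk10 in EY against E, -0.0046 to 0.47 for Klk10 in Y against E, -0.15 to 0.07 for Klk13 and -0.05 to 0.17 for Spink5 in EY against E.

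Scaling also moved the split of all calls. The share that was higher went from 68.8% to 43.8% in EY against N, 75.8% to 57.2% in Y against N, 53.5% to 30.3% in EY against Y, 61.1% to 38.9% in EY against E and 67.5% to 56.1% in Y against E. Depth limits Klk6 in N and E, where 0 to 13 reads per mouse stood behind each value. It also limits Klk5 in EY, where 6 to 28 reads per mouse did.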
